A study of Danio rerio with 13 samples.

Results

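The binding architecture of hnRNP A1 on RNA was compared between zebrafish embryos during zygotic genome activation and embryos before it. Crosslink sites had been mapped by iCLIP, a method that fixes proteins to the RNA they touch by UV irradiation, pulls them down with an antibody, and reads the crosslinked nucleotide from where reverse transcription stopped. The members were the hnRNP A1 pull-downs of both stages, which are 7 of the 13 samples of the series: 4 samples labelled ZGA, from the 1000-cell stage, and 3 samples labelled preZGA, from the 32-cell stage. The other 6 samples were IgG control pull-downs, 3 at ZGA and 3 at preZGA. All embryos were wild type of the AB strain, were irradiated at 254 nm and were used whole, without separation of cell types. The hnRNP A1 samples were pulled down with a mouse antibody against hnRNP A1 and the controls with an IgG antibody.

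The submitters deposited 1 pooled table for each stage, and the copies attached to the samples of a stage were identical, so each stage gave 1 value and no spread between samples. No test between the stages was therefore possible. The intervals printed are exact, at 95%, and cover counting error only. The label text speaks of 3 summed replicates, whereas the name of the ZGA table lists 4 libraries and the labels give 4 ZGA samples. Listed crosslink sites numbered 200258 with 480927 cDNAs at ZGA and 287588 with 583691 cDNAs at preZGA. The tables hold only sites that passed the submitters' filter, so these totals are not sequencing depth and a site without an entry is called not listed, not absent. In a pull-down from whole embryos, fewer molecules of an RNA and less binding per molecule cannot be told apart.

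hnRNP A1 is an abundant RNA-binding protein that moves between nucleus and cytoplasm and is known in mammals for its part in splice site choice, microRNA processing and mRNA export. It holds a pair of RNA recognition motifs and a flexible glycine-rich tail through which several molecules can assemble along 1 RNA, and in mammalian cells it favours short motifs with a UAG core. Early zebrafish embryos live on maternal RNA stored in the egg. During zygotic genome activation transcription from the embryo's own genome begins and maternal RNAs start to be cleared. No genome sequence or gene annotation of the build of these tables, Zv9, was used here, so clusters are named by position, with 1-based coordinates, and carry no gene names.

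Sites were joined into clusters where neighbouring sites on 1 strand lay at most 15 nt apart, and a cluster needed at least 2 sites. hnRNP A1 formed 26276 clusters at ZGA and 30620 at preZGA. Clusters held 98.0% of sites and 98.4% of cDNAs at ZGA, and 98.6% of sites and 98.98% of cDNAs at preZGA, which left 3961 single sites at ZGA and 3925 at preZGA. The median width was 14 nt (quartiles 7 and 24) at ZGA and 16 nt (quartiles 8 and 28) at preZGA. This difference of -2 nt was 0 nt with a merge distance of 3 nt and in the multi-mapping tables, and -1 nt with the preZGA table thinned to the ZGA total. The difference was larger at the wide end. The 90th percentile of width was 41 nt at ZGA and 51 nt at preZGA, and the 99th percentile was 117 nt at ZGA and 159 nt at preZGA. Clusters together covered 519905 nt at ZGA and 750213 nt at preZGA. The share of covered nucleotides that carried a site was 37.8% at both stages.

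Clusters also held fewer sites at ZGA, with a median of 4 and a mean of 7.47, against a median of 5 and a mean of 9.26 at preZGA. The median number of cDNAs per cluster was 6 at ZGA and 7 at preZGA, and the mean was 18.0 at ZGA and 18.9 at preZGA. Without chromosome 4 and the mitochondrial genome, which hold the most heavily bound loci, the means were 13.8 at ZGA and 16.2 at preZGA. At least 20 cDNAs were found in 3984 clusters at ZGA, or 15.2% (14.7 to 15.6), and in 5857 clusters at preZGA, or 19.1% (18.7 to 19.6). Few large clusters carried much of the signal. The 486 clusters of at least 100 cDNAs at ZGA held 41.7% of all cDNAs, and the 687 such clusters at preZGA held 36.6%. The order turned without the loci named above, in a comparison added after seeing the data. Off chromosome 4 and the mitochondrial genome, clusters of at least 100 cDNAs held 24.5% of cDNAs at ZGA and 26.1% at preZGA. Without clusters that contained an IgG site of their stage, the shares were 18.9% at ZGA and 26.2% at preZGA.

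Width grew with the number of cDNAs, and within bins of equal cDNA number, a comparison added after seeing the data, the median was still lower at ZGA. Among clusters of 2 to 4 cDNAs the median width was 7 nt at ZGA and 8 nt at preZGA. Among clusters of 20 to 49 cDNAs it was 30 nt (30 to 31) at ZGA and 35 nt (34 to 37) at preZGA. The intervals of clusters with 50 to 99 cDNAs were separate but close, at 52 nt (47 to 55) for ZGA and 60 nt (56 to 63) for preZGA. The gap was widest among clusters of at least 100 cDNAs, where the median was 55 nt (50 to 60) at ZGA and 90 nt (82 to 98) at preZGA. In that bin the clusters held a median of 40 sites at ZGA and 59 at preZGA, and the strongest nucleotide carried 11.8% of the cluster's cDNAs at ZGA and 6.72% at preZGA. Off chromosome 4 and the mitochondrial genome the median width in that bin was 66 nt (60 to 73) at ZGA and 95 nt (88 to 105) at preZGA. Without clusters containing an IgG site it was 74 nt (67 to 86) at ZGA and 94 nt (86 to 103) at preZGA, and the strongest nucleotide carried 7.94% at ZGA and 6.47% at preZGA. These bins compare different sets of clusters at the 2 stages. Clusters at the same place are compared further on.

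**Figure D1:**
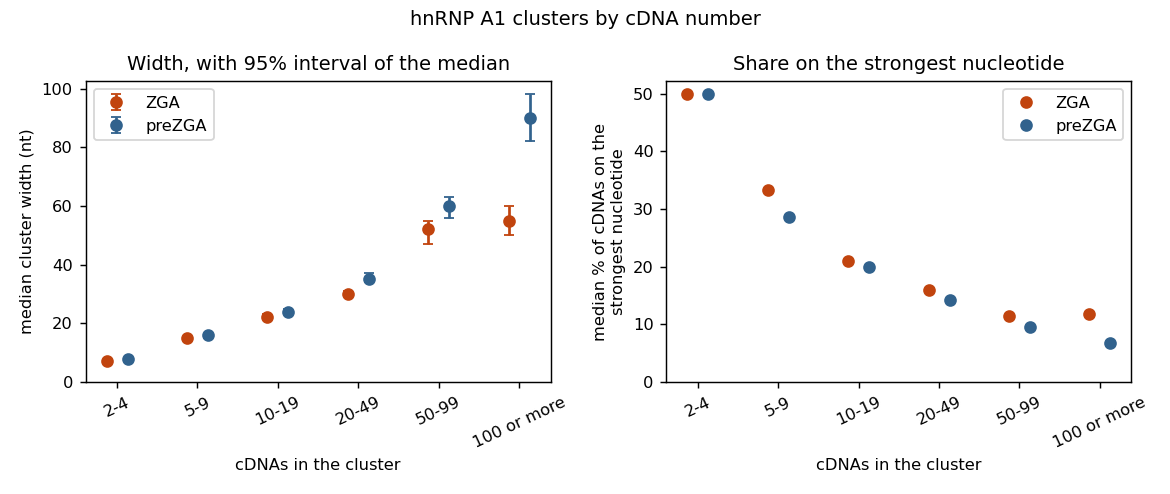
Median width in nt (left, bars are 95% intervals of the median) and median share of cDNAs on the strongest nucleotide in percent (right) of hnRNP A1 clusters, by the number of cDNAs in the cluster, at ZGA and at preZGA. Both stages widen with cDNA number, and the stages differ most at 100 or more cDNAs, with 55 nt at ZGA and 90 nt at preZGA.

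The spacing of sites within clusters was similar at the 2 stages. Of neighbouring sites within clusters, 47.3% were 1 nt apart at ZGA and 46.9% at preZGA, and 16.9% were 2 nt apart at ZGA and 17.9% at preZGA. Runs of at least 5 adjacent occupied nucleotides held 19.01% of sites at ZGA and 20.5% at preZGA. The longest such run was 232 nt at ZGA and 180 nt at preZGA. By the merge rule, neighbouring sites of a cluster lay at most 15 nt apart at either stage.

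Around the strongest nucleotide of clusters with at least 20 cDNAs, cDNAs were on average more concentrated at ZGA. This compares different sets of clusters at the 2 stages. Among paired clusters of similar cDNA number, given further on, the stages differed less. On average the strongest nucleotide held 18.5% of a cluster's cDNAs at ZGA and 14.2% at preZGA. Within 5 nt on either side lay 48.7% at ZGA and 40.6% at preZGA, within 15 nt 74.0% at ZGA and 67.9% at preZGA, and within 30 nt 86.9% at ZGA and 83.0% at preZGA. Without clusters containing an IgG site the strongest nucleotide held 17.3% at ZGA and 13.96% at preZGA, and off chromosome 4 and the mitochondrial genome 17.5% at ZGA and 13.9% at preZGA. A step appeared at 15 nt from the strongest nucleotide at both stages. The 5′ edge of the cluster lay exactly 15 nt away in 5.77% of clusters at ZGA and 6.23% at preZGA, but 16 nt away in 2.76% at ZGA and 2.32% at preZGA. For the 3′ edge the shares at 15 nt were 5.72% at ZGA and 5.84% at preZGA, and at 16 nt 2.41% at both stages. The submitters' filter used 15 nt as its neighbourhood, and sites were merged here over the same distance. With a merge distance of 30 nt, tried after seeing the data, the 5′ edge still lay at 15 nt in 4.65% of clusters at ZGA and 5.53% at preZGA, against 2.14% at ZGA and 2.18% at preZGA at 16 nt. The part of the submitters' filter in the widths was not tested.

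**Figure D2:**
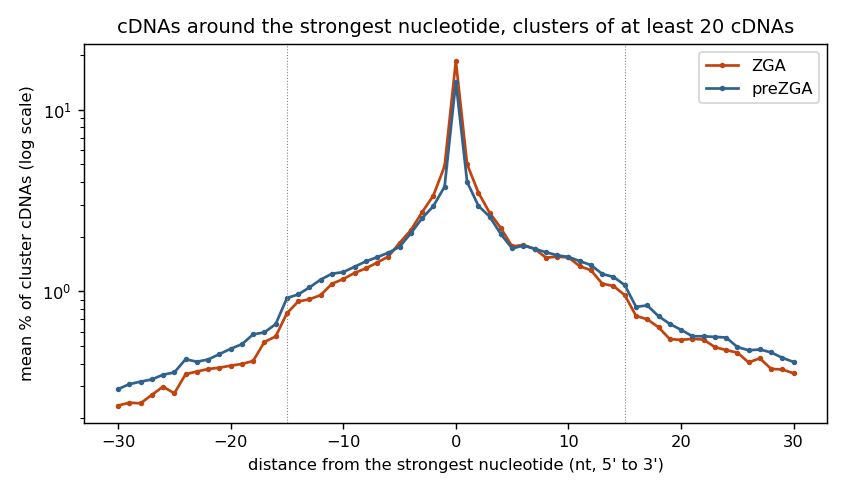
Mean share of a cluster's cDNAs, in percent on a log scale, by distance in nt from the cluster's strongest nucleotide (5′ to 3′), over the 3984 clusters of at least 20 cDNAs at ZGA and the 5857 at preZGA. The centre stands at 18.5% at ZGA and 14.2% at preZGA, and the dotted lines mark 15 nt, where both curves step down.

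IgG sites lay in few clusters, with a larger share at ZGA. These shares were not scaled to the number of IgG sites listed at each stage. An IgG site of the same stage lay inside 1.42% of clusters at ZGA (1.28 to 1.57) and 0.777% at preZGA (0.682 to 0.882). Among clusters of at least 20 cDNAs the shares were 7.35% at ZGA (6.56 to 8.21) and 2.78% at preZGA (2.38 to 3.24). The order was the other way in 10 kb windows of at least 100 sites over both stages. IgG sites lay in 6.41% of those windows at ZGA and 10.8% at preZGA. Clusters on chromosome 4 made up 4.38% of all clusters at ZGA and 2.76% at preZGA.

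The clusters with the most cDNAs were largely the same places at both stages. The largest at ZGA spanned chr4:61299040-61299109 on the minus strand with 20015 cDNAs, and its counterpart at preZGA, chr4:61299041-61299109, held 8052. Its strongest nucleotide was 61299094 at both stages, with 1577 cDNAs at ZGA and 468 at preZGA, and 69 of its nucleotides carried a site at each stage. IgG gave 1119 cDNAs there at ZGA and 602 at preZGA. Nearby on the same strand, the largest cluster of preZGA spanned 305 nt at chr4:61299564-61299868 with 11326 cDNAs, and the ZGA cluster over it spanned 354 nt from 61299515 with 10478 cDNAs. Both peaked at nucleotide 61299769, with 1203 cDNAs at ZGA and 758 at preZGA. The spans and the peaks of these large clusters thus nearly coincided while their cDNA numbers did not keep 1 ratio.

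On the plus strand of the mitochondrial genome, the cluster starting at nucleotide 2262 peaked at nucleotide 2300 at both stages, with 2063 cDNAs there at ZGA and 2086 at preZGA. It ended at 2319 at ZGA, a width of 58 nt, and at 2363 at preZGA, a width of 102 nt. The cluster at 2836 peaked 1 nt apart at the stages, at 2852 with 868 cDNAs at ZGA and at 2851 with 1046 cDNAs at preZGA. Other large ZGA clusters had much less signal at preZGA. The mitochondrial cluster from 943 to 991 held 3277 cDNAs at ZGA, beside 274 of IgG, and the same span held 536 at preZGA. The cluster at chr4:40099851-40099899 on the plus strand held 3051 cDNAs at ZGA and 104 at preZGA, and shared its strongest nucleotide, 40099866, between the stages. IgG gave 577 cDNAs inside it at ZGA. The cluster at chr1:2600136-2600185 on the plus strand held 10381 cDNAs at ZGA and 6117 at preZGA. The control was also high there, with 7465 IgG cDNAs at ZGA and 5785 at preZGA. These counts were not scaled to the size of the pull-downs.

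The widest clusters were of another kind, long stretches with few cDNAs on any 1 nucleotide. The widest at ZGA spanned 691 nt at chr15:5792253-5792943 on the minus strand, with 808 cDNAs over 346 sites. At preZGA the same stretch was 704 nt wide, with 1040 cDNAs over 405 sites. The widest at preZGA spanned 856 nt at chr19:43861684-43862539 on the plus strand, with 537 cDNAs over 323 sites and at most 11 cDNAs on a nucleotide. The ZGA cluster inside it was 370 nt wide, with 159 cDNAs over 106 sites. None of the 5 widest clusters of either stage lay on chromosome 4 or the mitochondrial genome.

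At the other extreme, some clusters of at least 100 cDNAs sat almost entirely on 1 nucleotide. At ZGA the cluster at chr24:5396827-5396829 on the plus strand had 198 of its 201 cDNAs, or 98.5%, on nucleotide 5396829. No site was listed there at preZGA, and IgG gave 98 cDNAs at ZGA. At chr11:23444049-23444069 on the minus strand, 198 of 210 cDNAs lay on nucleotide 23444051 at ZGA, and 13 of 18 cDNAs lay on it at preZGA. The cluster at chr15:43632579-43632581 on the plus strand was among the 5 sharpest at both stages and had the same 3 nucleotides at both. Nucleotide 43632580 carried 398 of 449 cDNAs at ZGA and 142 of 164 at preZGA. All 5 of the sharpest ZGA clusters contained IgG cDNAs, between 2 and 98 of them, and their part in the sharpness was not tested.

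Clusters without overlap with a cluster of the other stage were mostly small. Single sites of the other stage, which form no cluster, could still lie inside them. Of the ZGA clusters, 12290 (46.8%) had no overlap with a preZGA cluster, and of the preZGA clusters 17549 (57.3%) had none with a ZGA cluster. Their median width was 10 nt at ZGA and 13 nt at preZGA, against 19 nt at ZGA and 25 nt at preZGA for clusters that overlapped the other stage. The median cDNA number of clusters without overlap was 4 at ZGA and 5 at preZGA. They held 15.5% of all cDNAs at ZGA and 23.4% at preZGA. Among clusters of at least 20 cDNAs, those without overlap came to 400 of 3984 (10.04%) at ZGA and 1167 of 5857 (19.9%) at preZGA. Among clusters of at least 100 cDNAs they came to 20 of 486 (4.12%) at ZGA and 16 of 687 (2.33%) at preZGA. Some clusters met several of the other stage: 490 ZGA clusters overlapped at least 2 preZGA clusters, and 1118 preZGA clusters overlapped at least 2 ZGA clusters.

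Of the clusters without overlap, the 2 with the most cDNAs at each stage lay in the mitochondrial genome and the heavily bound chromosome 4 locus. The largest at ZGA, on the mitochondrial plus strand from 2202 to 2232, had 716 cDNAs, of which 309 were on nucleotide 2217, and no site was listed in that span at preZGA. The next, at chr4:61298356-61298386 on the minus strand, had 658 cDNAs, of which 255 were on nucleotide 61298371. Both were 31 nt wide with the strongest nucleotide exactly in the middle, 15 nt from each edge, the distance of the submitters' filter. The largest at preZGA was on the mitochondrial plus strand from 3221 to 3261 with 1295 cDNAs, followed by chr4:61298434-61298487 on the minus strand with 1220. These 4 clusters contained no IgG site of their stage. In all, 74 of the 400 ZGA clusters of at least 20 cDNAs without overlap were on chromosome 4 and 64 contained an IgG site. Of the 1167 preZGA clusters of that kind, 33 were on chromosome 4 and 6 contained an IgG site. Among all clusters of at least 20 cDNAs, 6.48% at ZGA and 2.71% at preZGA were on chromosome 4. An IgG site lay in 7.35% of them at ZGA and 2.78% at preZGA.

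To follow single binding regions between the stages, each cluster was paired with the cluster of the other stage that overlapped it most, where this held in both directions. This gave 12626 pairs, of which 2729 had at least 20 cDNAs at each stage. These 2729 pairs held 56.5% of all cDNAs at ZGA and 51.2% at preZGA, and the median ratio of their cDNA numbers, ZGA over preZGA, was 0.75. Only 45 pairs had the same first and last nucleotide at both stages.

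The strongest nucleotide was the same at ZGA and preZGA in 586 of the 2729 pairs, or 21.5% (19.9 to 23.1). It lay within 1 nt in 880 pairs (32.2%) and within 5 nt in 1358 pairs (49.8%), and it was more than 30 nt away in 473 pairs (17.3%). The median distance was 6 nt. The share with the same strongest nucleotide grew with the number of cDNAs. It was 28.2% (25.1 to 31.4) among 817 pairs of at least 50 cDNAs and 37.4% (32.0 to 43.1) among 310 pairs of at least 100. Many clusters had several nucleotides with the same highest count, of which the 5′-most was taken. Among the 1506 pairs without a tie it was 30.9% (28.5 to 33.3).

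Regions with a dominant nucleotide before activation mostly kept it. Where the strongest nucleotide held at least 25% of the preZGA cDNAs, it was also the strongest at ZGA in 162 of 265 pairs, or 61.1% (55.0 to 67.0). Where it held under 10%, it was so in 145 of 1140 pairs, or 12.7% (10.8 to 14.8). The preZGA clusters held a median of 9 sites in the former pairs and 43 in the latter. The part of this number of sites in the contrast was not tested. On chromosome 4 the nucleotide was the same in 47 of 94 pairs, on the mitochondrial genome in 15 of 25, and elsewhere in 524 of 2610 (20.1%). Pairs with an IgG site at either stage had the same strongest nucleotide in 45.9% of 196 cases, and pairs without in 19.6% of 2533. The strongest preZGA nucleotide was a site of the paired ZGA cluster in 2058 pairs (75.4%). It was among the 3 highest counts of that ZGA cluster in 45.7%. Nucleotides with equal counts shared a rank here, so more than 3 could qualify in a cluster. ZGA sites in neighbouring clusters were not counted here.

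The distribution of cDNAs along the paired regions was partly shared. A median of 62.5% of the occupied nucleotides of the ZGA cluster were also occupied in the paired preZGA cluster. Of those of the preZGA cluster, a median of 48.0% were also occupied in the paired ZGA cluster. Sites of the other stage in neighbouring clusters were not counted, so these shares can understate what was listed there. Pearson's correlation of cDNAs per nucleotide was also taken from the paired clusters alone, over their joint span. Sites of neighbouring clusters in that span were left out, which affects pairs whose stretch was divided differently at the stages. The correlation had a median of 0.398 across the 2729 pairs, with quartiles of 0.226 and 0.597. It was 0.741 in the 94 pairs on chromosome 4 and 0.846 in the 25 mitochondrial pairs. Among pairs of at least 100 cDNAs it was 0.641. These values describe nucleotides of 1 RNA region, which share the base composition that UV crosslinking depends on, and are not tests.

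Where the strongest nucleotide moved, it moved 3′ more often than 5′, in 1213 against 930 pairs. Without ties the numbers were 595 towards 3′ and 446 towards 5′. A measure that uses all cDNAs, their mean position within the cluster, gave the same direction. This measure was added after seeing the data. The centre of cDNAs lay further 3′ at ZGA in 1787 of 2729 pairs, or 65.5% (63.7 to 67.3), and the median displacement was 1.82 nt towards 3′ (1.59 to 2.12). The share was 65.1% on the plus strand and 65.8% on the minus strand, so it followed the direction of the RNA and not that of the chromosome. All 25 numbered chromosomes and the mitochondrial genome, 26 in all, had a median above 0, and in 22 of them the interval of the share lay above 50%. The shares ran from 54.3% on chromosome 4 to 81.0% on chromosome 24. The interval included 50% on chromosome 1 (43.4 to 67.0), chromosome 4 (43.7 to 64.6), chromosome 22 (46.6 to 69.2) and the mitochondrial genome (34.9 to 75.6). These intervals treat pairs as independent. All chromosomes of a stage come from the same pooled samples, so they are not replicates of the difference between the stages.

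The edges of the clusters differed too. The reach of the 5′ edge, ZGA minus preZGA, had a mean of -11.4 nt and a median of -4 nt, where a negative value means that the ZGA cluster ended further inside. That of the 3′ edge had a mean of -4.57 nt and a median of 0. When only the span common to both stages was used, the centre was still further 3′ at ZGA in 1633 pairs and further 5′ in 1089, but the median displacement was 0.46 nt. When all listed sites within the joint span of a pair were used, so that a stretch divided into several clusters at 1 stage was still counted whole, the centre was further 3′ at ZGA in 1819 pairs and further 5′ in 910, by a median of 1.94 nt (1.68 to 2.20). Among the 849 pairs whose larger cDNA number exceeded the smaller by at most 25%, 573 (67.5%, 64.2 to 70.6) had the centre further 3′ at ZGA, by a median of 1.51 nt. In those pairs the widths had the same median at both stages, the reach of the 5′ edge differed by a mean of -1.48 nt (median -1 nt), and that of the 3′ edge by a mean of 4.22 nt (median 2 nt). Among pairs without any IgG site the share was 66.2%, and among pairs with one it was 55.6% (48.4 to 62.7). Where ZGA had more than 2 times the cDNAs of preZGA, it was 66 of 132 pairs (41.2 to 58.8). Pairs with a dominant preZGA nucleotide, of at least 25% of cDNAs, had a median displacement of 0.13 nt, and pairs whose strongest nucleotide held under 10% one of 4.09 nt. The displacement in nt was thus larger among regions without a dominant nucleotide, but these were also much wider. Their median width was 68 nt at ZGA and 95.5 nt at preZGA, against 19 nt at ZGA and 14 nt at preZGA with a dominant nucleotide. The centre lay further 3′ in 63.4% of the former pairs and 57.0% of the latter. The part of width in the displacement was not tested.

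**Figure D3:**
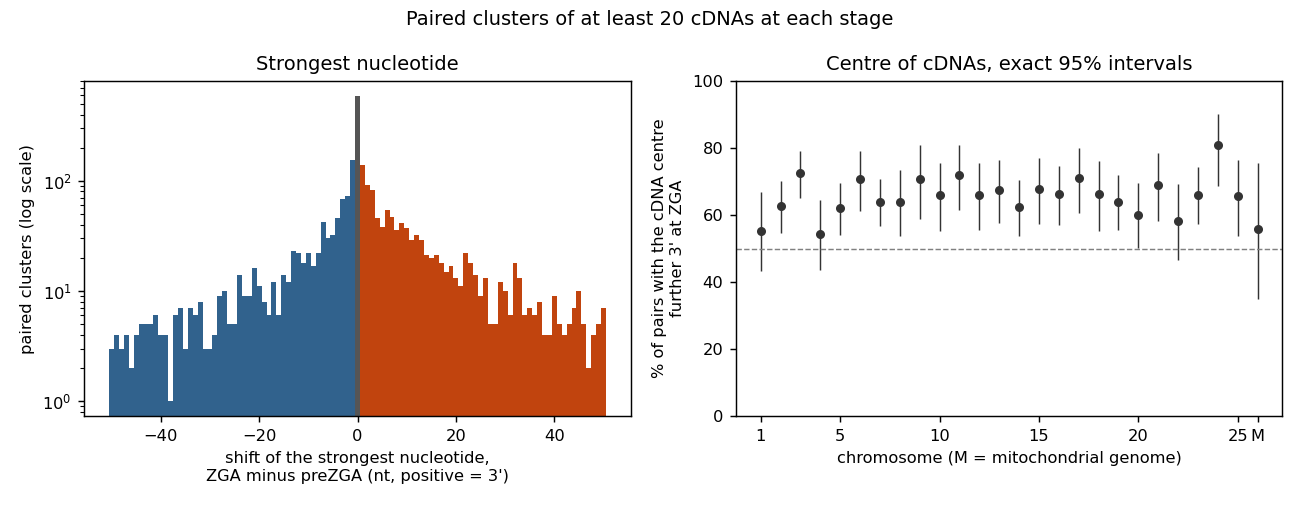
Left, number of paired clusters (log scale) by the shift of the strongest nucleotide, ZGA minus preZGA, in nt along the RNA, with shifts beyond 50 nt not drawn. Right, share of pairs in which the centre of cDNAs lay further 3′ at ZGA, by chromosome, with exact 95% intervals and a dashed line at 50%. The peak at 0 holds 586 pairs, and the points on the right lie between 54.3% and 81.0%.

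Most paired clusters were narrower at ZGA, and the direction went with their cDNA numbers and with the control signal. The median width was 41 nt at ZGA and 50 nt at preZGA. The ZGA cluster was wider in 899 pairs, narrower in 1725 and equal in 105. It was at least 2-fold wider in 89 pairs (3.26%) and at least 2-fold narrower in 387 (14.2%). Where ZGA had under 0.5 of the preZGA cDNAs, 12 clusters were wider and 539 narrower. Where it had more than 2 times as many, 111 were wider and 11 narrower. Pairs with an IgG site at either stage went the other way, with 108 wider and 67 narrower (61.7% wider, 54.1 to 68.9), and pairs without one had 791 wider and 1658 narrower. On chromosome 4 the numbers were 46 wider and 37 narrower, and on the mitochondrial genome 16 and 7. Among the 849 pairs with cDNA numbers matched to 25% the direction turned, with 431 wider and 364 narrower at ZGA, or 54.2% wider of those that differed (50.7 to 57.7), and the median width was 37 nt at both stages. When both stages of every pair were thinned at random to the lower of the 2 cDNA numbers, 915 were wider and 1685 narrower. Thinning was done inside the clusters already formed, and sites were not merged anew, so gaps left by it did not divide a cluster. These widths are therefore not those of clusters built at equal cDNA numbers. Thinning by nucleotide also cannot undo the submitters' filter, which had been applied before at each stage's own number.

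The share on the strongest nucleotide also differed less where cDNA numbers were matched, but kept its direction there. Over all pairs it had a median of 13.6% at ZGA and 11.1% at preZGA and was higher at ZGA in 1799 pairs and lower in 909. Among pairs with cDNA numbers matched to 25% the medians were 13.8% at ZGA and 13.5% at preZGA, with 454 higher and 380 lower (54.4% higher, 50.99 to 57.9). After thinning inside the clusters already formed, 1344 were higher and 783 lower. Pairs with an IgG site at either stage had 84 higher and 111 lower (43.1% higher, 36.0 to 50.3), and pairs without one had 1715 higher and 798 lower. On chromosome 4 the numbers were 46 higher and 47 lower, and on the mitochondrial genome 10 and 15.

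Single pairs show how the regions differed. The largest move of a strongest nucleotide towards 3′ was in the widest ZGA cluster, on chromosome 15, and came to 599 nt. Its strongest nucleotide was 5792333 with 16 cDNAs at ZGA, where preZGA had 9. At preZGA it was 5792932 with 13 cDNAs, a count that 3 nucleotides shared, and ZGA had 11 there. The centre of cDNAs of that pair moved by 1.86 nt, and the correlation of its profiles was 0.586. A large move of the maximum therefore came from small differences between several peaks of similar height. A different pattern was seen in the pair on the minus strand of chromosome 13 that had both the largest move towards 5′ and the largest gain of width. The ZGA cluster spanned 496 nt, chr13:26048681-26049176, with 358 cDNAs, and the preZGA cluster 206 nt, chr13:26048681-26048886, with 172. The strongest ZGA nucleotide, 26049111, held 10 cDNAs, and preZGA had 11 there, but in another cluster. Over the whole ZGA span preZGA had 222 sites with 513 cDNAs, against 198 sites with 358 cDNAs at ZGA, so the stretch was bound at both stages and divided into more clusters at preZGA.

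The largest loss of width was on the plus strand of chromosome 19, where the ZGA cluster of 370 nt lay inside the widest preZGA cluster of 856 nt. Over that whole preZGA span 232 sites with 343 cDNAs were listed at ZGA, so further ZGA clusters lay along it. On the minus strand of chromosome 3, the ZGA cluster chr3:59297574-59297748 was 175 nt wide with 60 cDNAs, and the preZGA cluster chr3:59297577-59298158 was 582 nt wide with 344. Over the joint span ZGA had 128 sites and preZGA 232. In both pairs the centre of the ZGA cluster lay well to the 3′ side, by 199 nt and 184 nt. On the plus strand of chromosome 25, a cluster of 188 nt at ZGA and 580 nt at preZGA kept its strongest nucleotide, 25748693, with 17 cDNAs at ZGA and 19 at preZGA, and its centre moved 82.7 nt towards 5′. Over the joint span, further ZGA clusters included, 154 sites with 281 cDNAs were listed at ZGA and 220 sites with 383 cDNAs at preZGA.

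Among the pairs whose strongest nucleotide lost most of its share, the one at chr14:51047043-51047079 on the minus strand had 246 of 491 cDNAs (50.1%) on nucleotide 51047074 at ZGA and 180 of 195 (92.3%) on it at preZGA. The count on the nucleotide was thus higher at ZGA, and the cluster had more sites in all, 32 at ZGA against 10 at preZGA. IgG gave 44 cDNAs there at ZGA and 34 at preZGA. The largest gain of share was at chr13:49827404-49827429 on the minus strand, without IgG sites. Nucleotide 49827406 held 82 of 140 cDNAs (58.6%) at ZGA and none of the 27 cDNAs at preZGA, where the highest count was 6 (22.2%). At chr14:7870768-7870790 on the plus strand, nucleotide 7870789 held 20 of 41 cDNAs at ZGA and none of 26 at preZGA. Both pairs were bound at both stages and had a dominant nucleotide at ZGA that was not listed at preZGA, though each rests on few cDNAs at preZGA.

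**Figure D4:**
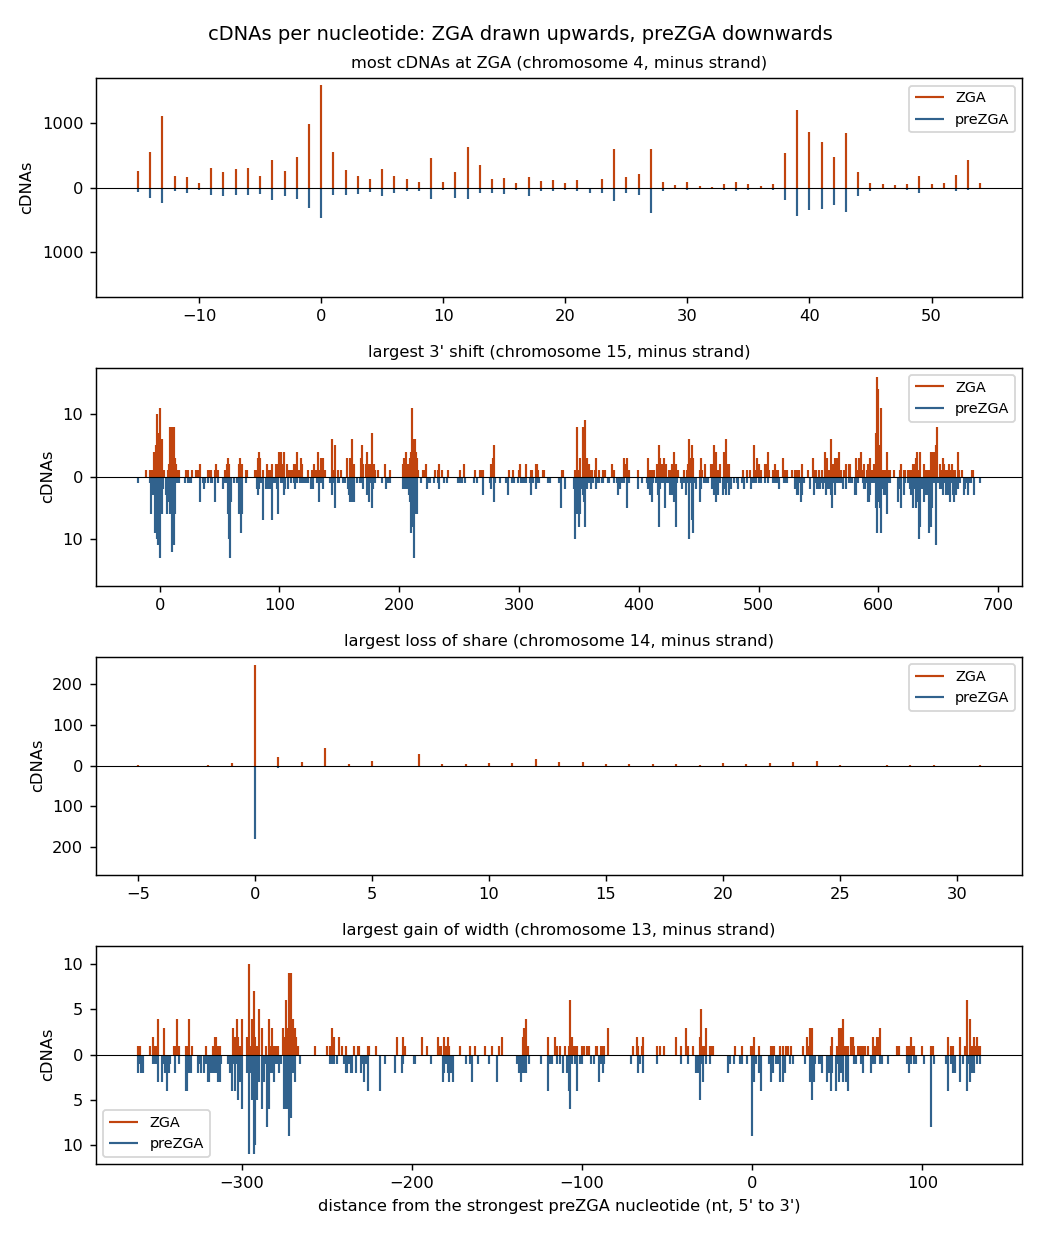
cDNAs per nucleotide of 4 paired regions by distance in nt from the strongest nucleotide of the preZGA cluster (5′ to 3′), with all sites listed in the joint span, ZGA drawn upwards and preZGA downwards on the same linear scale. From the top, the cluster with the most cDNAs at ZGA peaks on the same nucleotide at both stages; the widest ZGA cluster has several peaks of similar height; the chromosome 14 pair has 246 cDNAs at ZGA and 180 at preZGA on 1 nucleotide; and the chromosome 13 cluster of 496 nt at ZGA, whose paired preZGA cluster spans 206 nt, has preZGA sites along its whole length.

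At the scale of 10 kb and 1 strand, most windows of many sites had a similar share of all sites at the 2 stages, whereas most of the 19341 windows with any site had one at 1 stage only. A site was listed in 13940 windows at ZGA and in 13698 at preZGA, and 8297 windows had one at both. Occupied windows had a median of 4 sites at ZGA and 5 at preZGA, and 354 windows had at least 100 sites at ZGA and 649 at preZGA. The 1000 fullest windows of each stage held 54.0% of sites at ZGA and 54.4% at preZGA, so the spread of sites over windows was alike. The 1000 windows with the most cDNAs held 69.2% of cDNAs at ZGA and 66.0% at preZGA.

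Windows with at least 100 sites over both stages, 1201 in number, were compared by their share of all listed sites. The share was within 2-fold in 1105 windows (92.0%). It was at least 2-fold higher at ZGA in 33 windows (2.75%) and at least 2-fold lower in 63 (5.25%). The median ratio, ZGA over preZGA, was 0.962, or -0.06 on the log2 scale. Compared windows had a median of 70 sites in 7 clusters at ZGA and 104 sites in 8 clusters at preZGA, and a median of 11 sites per cluster at ZGA and 14.6 at preZGA. The lower number of sites at ZGA in these windows thus went with smaller clusters more than with fewer clusters.

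Of the 1201 windows compared, 29 were on chromosome 4 (2.41%), 77 contained IgG sites at ZGA (6.41%) and 130 at preZGA (10.8%). Of the 33 higher windows, 15 were on chromosome 4 and 2 on the mitochondrial genome, 22 contained IgG sites at ZGA and 20 contained them at preZGA. Of the 63 lower windows none was on chromosome 4, 24 chromosomes had at least 1, 2 windows contained IgG sites at ZGA and 6 at preZGA. Without hnRNP A1 sites near an IgG site the higher windows numbered 14 of 1168 compared. Without chromosome 4 and the mitochondrial genome they numbered 19 of 1168. The number of cDNAs per site differed as well. Higher windows had a median of 5.18 cDNAs per site at ZGA and 2.30 at preZGA. Lower windows had 1.45 at ZGA and 1.61 at preZGA, and the remaining windows 1.49 at ZGA and 1.57 at preZGA. The part of the control signal in the higher windows was not tested.

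Counting cDNAs in place of sites left the lower side larger, on shares that were not rescaled to the median window. In each of the 5 fullest windows at ZGA the ratio of shares was lower by cDNAs than by sites. On chromosome 3, the window chr3:59290001-59300000 had a ratio of 1.01 by sites and 0.797 by cDNAs. The part of such an offset in the counts below was not tested. The share of cDNAs was at least 2-fold higher in 27 of the 1201 windows, 24 of which were also higher by sites. It was at least 2-fold lower in 145 windows, which include all 63 windows lower by sites and 82 whose share of sites was within 2-fold.

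**Figure D5:**
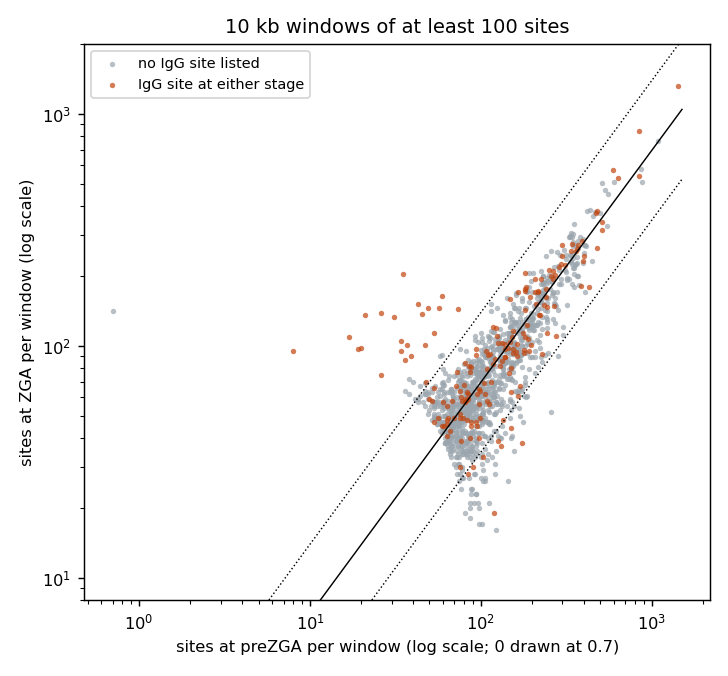
Sites per 10 kb window at ZGA (vertical) and at preZGA (horizontal), both on log scales, for the 1201 windows of at least 100 sites over both stages, coloured by whether an IgG site was listed at either stage. The solid line is the ratio of all listed sites and the dotted lines are 2-fold from it. Above the upper dotted line lie 33 windows, and below the lower one 63.

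The fullest window at ZGA was chr4:61290001-61300000 on the minus strand, with 1316 sites at ZGA and 1421 at preZGA. Its ratio of shares was 1.33 (1.23 to 1.43), and IgG gave 2812 cDNAs there at ZGA and 1766 at preZGA. Next came the plus strand of the mitochondrial genome from 1 to 10000, with 841 sites at ZGA and 838 at preZGA. The ratio there was 1.44 (1.31 to 1.59), with 1073 IgG cDNAs at ZGA and 150 at preZGA. Elsewhere the fullest window was chr3:59290001-59300000 on the minus strand, with 762 sites in 50 clusters at ZGA and 1085 sites in 39 clusters at preZGA, a ratio of shares of 1.01 (0.918 to 1.11). At chr17:12900001-12910000 on the plus strand, 576 sites lay in 53 clusters at ZGA and 865 sites in 34 clusters at preZGA, a ratio of 0.956 (0.859 to 1.06). In both windows a similar share of sites thus lay in more clusters at ZGA, though the number of listed sites was lower there. The part of the lower site number in this was not tested. The window chr14:48570001-48580000 on the minus strand had 573 sites at ZGA and 593 at preZGA, a ratio of 1.39 (1.23 to 1.56). These intervals treat sites as independent, although neighbouring sites come from 1 bound region. The chromosome 14 window also had more clusters at ZGA, 39 against 31, as did chr10:33030001-33040000 on the plus strand, 22 against 18. Fewer were found at ZGA in the chromosome 4 window (23 against 25) and the mitochondrial one (27 against 30). The same held at chr23:32590001-32600000 on the minus strand (34 against 41).

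The highest ratios were all on chromosome 4. At chr4:28000001-28010000 on the plus strand, 141 sites with 262 cDNAs in 12 clusters were listed at ZGA and none at preZGA, with no IgG site at either stage. At chr4:43570001-43580000 on the plus strand there were 95 sites at ZGA and 8 at preZGA, a ratio of 17.1 (8.31 to 40.6), with 181 IgG cDNAs beside 1010 of hnRNP A1 at ZGA. The other 3 of the 5 highest windows had ratios between 8.37 and 9.23 and also contained IgG sites at both stages. The lowest ratio was at chr10:37760001-37770000 on the minus strand, with 16 sites in 2 clusters at ZGA and 123 sites in 11 clusters at preZGA, a ratio of 0.187 (0.104 to 0.316). At chr23:260001-270000 on the minus strand, 17 sites with 17 cDNAs in 5 clusters were listed at ZGA and 98 sites with 111 cDNAs in 22 clusters at preZGA, a ratio of 0.249 (0.139 to 0.420). No nucleotide in that window had more than 1 cDNA at ZGA. The 5 lowest windows were on 5 chromosomes and had at most 3 IgG cDNAs.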

How the data were processed

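The measured quantity was the number of cDNAs per crosslinked nucleotide in iCLIP of hnRNP A1 and IgG pull-downs. The values of the deposited tables are signed cDNA counts of significant sites, in which the sign gives the strand. Per the names in the labels, sites passed a false discovery rate of 0.01 with 100 permutations and a neighbourhood of 15 nt, on danRer7 (Zv9) with Ensembl release 72. Per the submitters' processing notes, CASAVA 1.4 and the build Zv9 were used. The aligner was not given in the sources used here. The 26 files held 8 distinct tables, 1 unique-mapping and 1 multi-mapping table for each of 4 groups. Unique mapping was used, and copies were counted once.

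Sites at most 15 nt apart on 1 strand were joined, and clusters needed 2 sites. The strongest nucleotide of a cluster had the most cDNAs, ties going to the 5′-most. A cluster counts as having an IgG site where one lay within its span. Windows were 10 kb per strand, and their ratio set the share of listed sites at ZGA over the share at preZGA. Shares have Clopper-Pearson intervals, medians order-statistic intervals and ratios conditional binomial intervals, all exact at 95%. How PCR duplicates were removed was not given, so intervals cover counting error only. Replicates were pooled, so nothing was fitted or tested.

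Named were, per stage, the 10 clusters of most cDNAs, the 5 widest, the 5 sharpest of at least 100 cDNAs and the 5 fullest windows. Also named were the 5 most extreme pairs each way by shift, width and share, and the 5 highest and lowest windows. The clusters of most cDNAs without overlap were named after their values were seen. Members, lists and rules were chosen with earlier results of these data known. Alternatives changed the merge distance, the minimum of cDNAs, sites or window counts, the depth of the preZGA table (10 draws, seed 20), IgG sites, chromosomes and mapping. Matched and thinned pairs, the centre of cDNAs, the share on the strongest nucleotide and large clusters without IgG sites or chromosome 4 were added after seeing the data. The code was tested on simulated data. Software was scipy 1.17.1, pandas 2.3.3 and numpy 2.4.6 under Python 3.11.15, with plots by matplotlib 3.10.9.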

Additional observations from a re-analysis of the deposited data

How the results depend on the processing

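The values below are, for ZGA set against preZGA, the clusters per stage (26276 and 30620), the difference of median width (-2 nt), the ratio of mean cDNAs per cluster (0.954), the percentage of pairs with the same strongest nucleotide (21.5), wider at ZGA (34.3), with a higher share on the strongest nucleotide (66.4) and with the centre further 3′ (65.5), and the windows at least 2-fold higher (33) and lower (63). A merge distance of 3 nt gave 51861 preZGA clusters, a width difference of 0 nt, a mean ratio of 1.10, 29.8% with the same nucleotide, 36.8% wider and 63.5% with a higher share, and 30 nt gave a mean ratio of 0.941 and 62.5% further 3′. Sites of at least 2 cDNAs gave 11022 and 14219 clusters, a mean ratio of 1.13 and 28.6% with the same nucleotide. Of the 319 windows compared with these sites, against 1201 in the main setting, 9 were higher and 14 lower. At least 5 sites per cluster gave 13101 and 17020 clusters, a width difference of -3 nt and a mean ratio of 1.04. Thinning preZGA to the ZGA total gave -1 nt, a mean ratio of 1.13 and 64.5% with a higher share. Without sites near IgG sites the mean ratio was 0.785, the same nucleotide 19.7% and higher windows 14 of 1168. Without chromosome 4 and the mitochondrial genome the mean ratio was 0.854 and higher windows 19 of 1168. Multi-mapping tables gave 9216 and 7706 clusters, 0 nt, a mean ratio of 1.46 and 56.1% with the same nucleotide. They also gave 64.9% wider, 52.2% with a higher share and 70.0% further 3′. Of the 59 windows compared there, 14 were higher and 4 lower, so more were higher than lower, unlike in the main setting. Pairs of at least 10 cDNAs gave 18.5% and 63.4% further 3′, of at least 50 gave 28.2%, and without ties 30.9% with the same nucleotide. Pairs with cDNA numbers matched to 25%, chosen after seeing the data, gave 54.2% wider, 54.4% with a higher share and 67.5% further 3′, and thinned pairs, also chosen then, gave 63.2% with a higher share and 19.3% with the same nucleotide. Windows of 1 kb gave 33 lower of 1038 compared. Windows of at least 50 sites gave 108 higher and 244 lower of 2220, and windows of at least 200 sites 4 higher and 9 lower of 490. The difference in the share of cDNAs in clusters of at least 100 (5.08 percentage points) was -1.59 without chromosome 4 and the mitochondrial genome and -7.32 without clusters containing an IgG site, and the difference of their median width (-35 nt) was -20 nt without clusters containing an IgG site, all chosen after seeing the data. The causes of these changes were not tested.

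The mean ratio thus crossed 1 under 5 of 8 settings and has no settled direction. The share of pairs wider at ZGA crossed 50% under 2 of 13, whereas the centre of cDNAs stayed further 3′ in over 50% of pairs under all 14. No paired analysis was possible because the replicates of each stage were pooled in 1 table, and leaving out a replicate could not be run for the same reason. Differences between the stages therefore have no replicate check. Site numbers and widths count only what the submitters' filter let through, and sequencing depth is unknown.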
